A study of Mus musculus with 6 samples.

Results

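The transcription factors Sox9, Sox5, Sox6, Runx1, Runx2, Runx3, Mef2c, Foxo1, Foxo3 and Nfatc1 were examined in RNA-seq of primary mouse chondrocytes after knockdown of Pkm, the gene of the glycolytic enzyme pyruvate kinase M. The members were chosen by name as factors that set the chondrocyte state, with earlier results of these data known. All 10 were found among the 55416 genes of the deposited table. Cells of wild-type genotype from mouse knee joints received a control siRNA (siNC, 3 libraries) or an siRNA against Pkm2 (siPkm2, 3 libraries). The labels give neonatal mice as the source, whereas the methods of the study describe adult mice. The genotype labels of siPkm2 replicates 2 and 3 name PKM3 and PKM4, but their titles read siPKM2, and they were taken as siPkm2. Nothing states what a replicate number stands for or that replicates came from separate animals, so p-values measure the spread between these libraries.

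In cartilage, SOX9 opens and drives the genes of collagen II and aggrecan, and SOX5 and SOX6 bind beside it as partners without an activation domain of their own. RUNX2 and MEF2C drive the later, hypertrophic program that leads to bone, with RUNX1 and RUNX3 as relatives that bind the same DNA word through the shared partner CBFB. FOXO1 and FOXO3 maintain oxidative stress defence and autophagy genes, and NFATc1 enters the nucleus when the phosphatase calcineurin is active.

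The pair of RUNX words in the RUNX gene promoters and the siRNA seed sites in members are the sequences that bear on these genes. A RUNX word is TGTGGT, or its reverse complement ACCACA on the other strand. It was sought in the RefSeq promoters of GRCm38.p6, from 250 bases before to 50 bases after each annotated start. Of the 10 members 8 had an entry, and a gene can have several. Sox9 and Nfatc1 had none, so their promoters were not searched for any word. A single word occurred in 16.8% of all 32851 promoters and in 5 of 17 promoters of the members, from Runx1, Runx2, Runx3 and Sox6. Another entry of Runx1 and another of Runx3 lack the word. A pair of words on the same strand separated by 2 bases occurred in 7 promoters in all (0.0213%), and 3 of these belong to Runx1, Runx2 and Runx3. The search itself fixed the 14 bases of the pair except the 2 between the words, and no other spacing was counted. The windows of 30 bases below show that these 2 bases are the same in all 3, with the RUNX words in capitals.
Runx1, chr16:92826025-92826054, minus strand: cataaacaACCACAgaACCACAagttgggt
Runx2, chr17:44814583-44814612, minus strand: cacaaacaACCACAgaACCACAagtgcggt
Runx3, chr4:135120503-135120532, plus strand: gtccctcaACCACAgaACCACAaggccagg
The pair lies at bases 29 to 42 after the start in Runx1 and 24 to 37 in Runx2, and at bases -134 to -121 in Runx3. These matches are a description of the letters and not of binding. The SOX word ACAATGG occurred in 3.66% of all promoters and in 1 member promoter, of Sox5. The FOXO word GTAAACA occurred in 3.65% of all promoters and in 0 of the 17.

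An siRNA guide can also pair through its seed, bases 2 to 8, with the 3′ untranslated region (UTR) of other transcripts. The supplement of the study names 3 siRNAs against Pkm2 and states that the third was selected, without tying a number to the sequenced cultures. Its guide, with the seed in capitals, is shown because the paired site GAGAAAC occurs in the UTRs of 3 of the 10 members.
siPkm2 #3 guide: uGUUUCUCcagacagcaugtt
The site occurred in 16.4% of the 13202 tested genes with an annotated UTR in GENCODE M21. The sites in Runx1, Runx2 and Foxo1 follow, in capitals, on GRCm38.
Runx1, chr16:92603736-92603765, minus strand: agcaggattcaGAGAAACtcagaatagatc
Runx2, chr17:44604670-44604699, minus strand: gaaaccgatcaGAGAAACatctccacacca
Foxo1, chr3:52350887-52350916, plus strand: aaaagctgccgGAGAAACgaggattctgtt
They begin 1901, 3217 and 3917 bases after the stop codon. Of tested genes with a UTR, 31.9% of those lower in siPkm2 with the replicate block described below held the site, against 9.08% of those higher. This split was not made for the sites of siPkm2 #1 and #2, and UTR length was not taken into account. Of the 3 members, Runx1 and Runx2 had negative and Foxo1 a positive estimate, and the part of the site in their values was not tested. The site of siPkm2 #1 (TGTACCA) occurs in Sox6 and Foxo3, and that of siPkm2 #2 (AAGAATG) in Foxo1 and Mef2c, beside 10.9% and 15.9% of genes.

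Levels are given in TPM, the deposited values per transcript length, which allow a comparison between genes, and in CPM, counts scaled to library size by edgeR's TMM factors, on which the groups were tested. Total counts per library ranged from 22316996 to 25691029, and 15269 genes were tested. The targeted gene, Pkm, had 1674 to 2746 CPM over the siNC libraries and 309 to 541 CPM over the siPkm2 libraries, a log2 fold change of -2.51 (standard error, SE, 0.33; adjusted p = 0.0738, edgeR). A replicate block was also fitted, in which each siPkm2 library is set against the siNC library of the same number, and the adjusted p of Pkm was then 0.00932. Replicate 2 stood apart in both groups. The 10 chondrocyte markers were all tested and summed to 10292 and 14350 CPM in replicate 2 of siNC and siPkm2, against 41680 to 49244 CPM in the other 4 libraries. In bulk RNA, fewer cells of a type and less RNA per cell cannot be told apart. Fibroblast markers summed to 7252 to 16727 CPM. Of 8 endothelial markers 7 were under 1 CPM in every library. Of 12 leukocyte and osteoclast markers 8 were, and 4 were tested, Cd68, Csf1r, Lyz2 and Acp5. The leukocyte markers Ptprc, Adgre1 and Spi1 did not pass the filter for low counts. Among those tested, the macrophage marker Cd68 reached 55.5 and 33.4 CPM in replicate 2 of siNC and siPkm2. It was at 1.80 to 11.8 CPM in the other 4 libraries.

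Across the 10 factors, 0 had an adjusted p under 0.05 by edgeR's quasi-likelihood test without a block, where 0% of the 15269 genes did, and 0 by DESeq2 without a block, where 2.97% of genes did. All 10 passed the filter for low counts. At an unadjusted p under 0.05 there were 2, Sox5 and Runx2, beside 17.6% of all genes. With the replicate block 1 factor passed, Sox5, beside 23.1% of all genes. No factor passed at a fold over 2 in any fit, beside 5.83% of all genes with the block. With replicate pair 2 left out and the block kept, which leaves 1 residual degree of freedom, 6 of the 10 passed, beside 39.1% of all genes. By CPM the groups did not overlap for 2 of the 10, Sox5 and Runx2, beside 24.3% of all genes. The share of factors passing the block was below that of all genes, and nothing is read from it about the factors as a class.

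**Figure D1:**
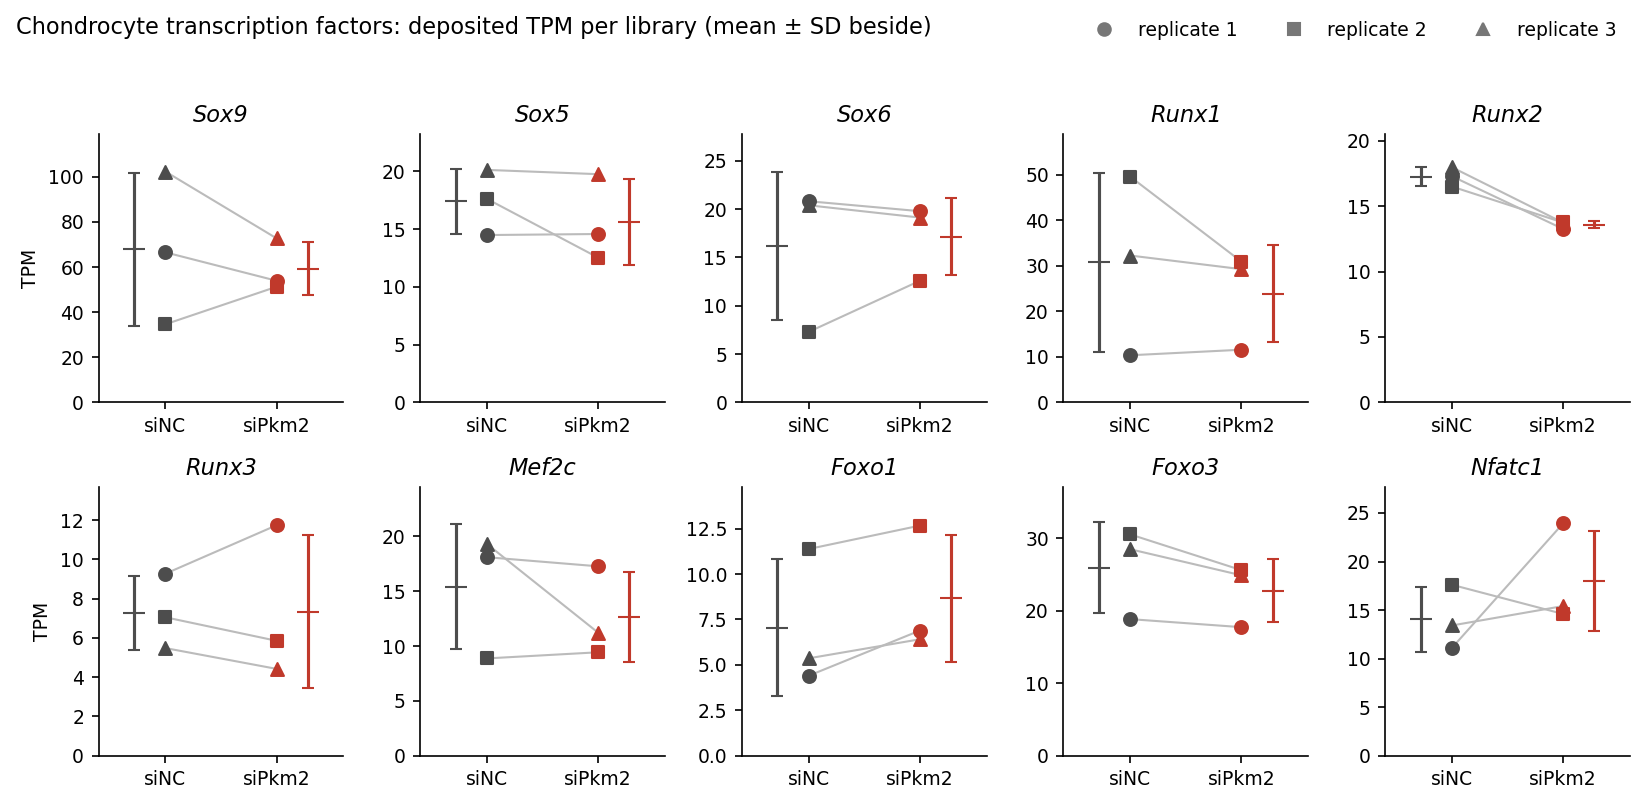
Deposited TPM of each factor (vertical axes, from 0) in the siNC (grey) and siPkm2 (red) libraries. Symbols mark the replicate number, thin lines join libraries of the same number, and the bars beside the points are the mean ± SD of 3 libraries. Runx2 is the factor whose groups do not overlap, with siNC at 16.5 to 18.0 and siPkm2 at 13.3 to 13.8 TPM.

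Sox9 (ENSMUSG00000000567, chromosome 11 from 112782224 to 112787760 on GRCm38) was the most abundant factor. It was at 66.5, 34.6 and 102 TPM in siNC replicates 1, 2 and 3 and at 53.9, 51.3 and 72.7 TPM in siPkm2. The lowest library was replicate 2 in each group, as for the cartilage markers, and the siPkm2 values lay inside the siNC range. In CPM the difference within pairs was -0.32, 0.63 and -0.42 on the log2 scale, so that it was lower in pairs 1 and 3 and higher in pair 2. The log2 fold change was -0.16 (SE 0.40, adjusted p = 0.883, edgeR). Without siNC replicate 3 it was 0.23 (adjusted p = 0.884, edgeR), and without pair 2, with the block, -0.38 (adjusted p = 0.0131, edgeR). The difference between the pairs was not tested.

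Sox5 (ENSMUSG00000041540, chromosome 6 from 143828425 to 144781977) fell in siPkm2 by counts, once the pairing was taken into account. In CPM it was at 65.5, 60.0 and 73.2 in siNC replicates 1, 2 and 3 and at 51.6, 42.1 and 56.9 in siPkm2. The groups did not overlap, with siPkm2 below siNC, and the log2 difference within pairs was -0.34, -0.51 and -0.36. The log2 fold change was -0.40 (SE 0.16, adjusted p = 0.262, edgeR), and -0.41 (SE 0.08, adjusted p = 0.0261) with the replicate block. DESeq2 with the block gave an adjusted p of 0.0147. The deposited TPM did not show this separation. It was 14.5, 17.6 and 20.1 TPM in siNC and 14.6, 12.5 and 19.8 TPM in siPkm2. Pairs 1 and 3 were close in TPM, and pair 2 was lower in siPkm2. On log2 TPM, limma gave a log2 fold change of -0.16 with an adjusted p of 0.770, and 0.454 with the block.

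TPM is scaled per transcript length, and no length is given for each library. Whether that length differed between libraries for Sox5 was not tested. The gap between the units lies in the counts that 1 TPM of Sox5 stood for. Relative to the mean of all 6 libraries, after each library's overall scale was removed, it was 1.19, 1.03 and 1.06 in siNC and 0.950, 0.968 and 0.799 in siPkm2. The highest was 1.49 times the lowest, and over the 12074 genes above 1 TPM in every library the median of this ratio was 1.10, with 7.50% of genes over 1.5. Sox5 has 14 annotated transcripts. For Sox9, with 1 annotated transcript, the ratio was 1.01. Which Sox5 transcripts were present was not tested. The antisense gene Sox5os1 overlaps Sox5, and whether counting used the strand is not given in the sources used here.

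**Figure D2:**
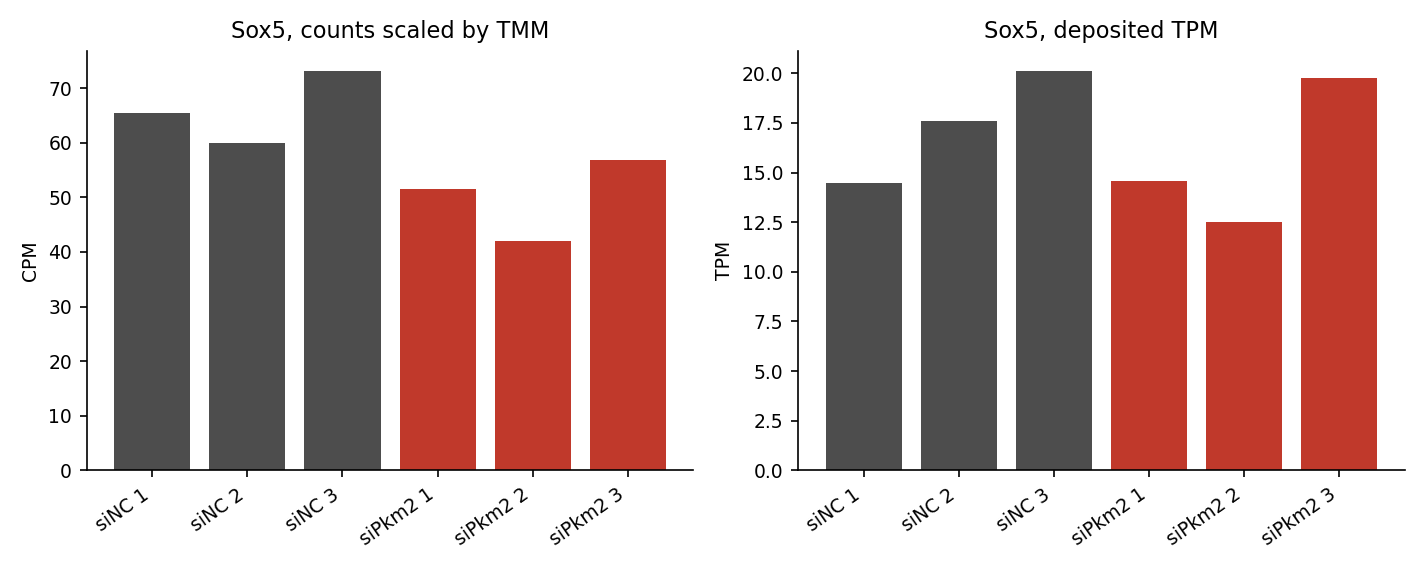
Sox5 in each library, as CPM scaled by TMM factors (left) and as deposited TPM (right), with siNC in grey, siPkm2 in red and axes from 0. By CPM the siPkm2 libraries, at 42.1 to 56.9, lie below the siNC libraries, at 60.0 to 73.2, and by TPM the groups overlap.

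Sox6 (ENSMUSG00000051910, chromosome 7 from 115470872 to 116038796) was at 20.8, 7.29 and 20.4 TPM in siNC and 19.8, 12.6 and 19.1 TPM in siPkm2. Replicate 2 was lowest in both groups and the groups overlapped. The log2 fold change in CPM was 0.02 (SE 0.48, adjusted p = 0.990, edgeR) and 0.10 with the block (adjusted p = 0.591). The TPM of Sox6 over that of Sox5 was 1.44, 0.414 and 1.01 in siNC and 1.36, 1.00 and 0.968 in siPkm2. The ratio was lowest in siNC replicate 2 and highest in replicate 1 of siNC.

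Runx2 (ENSMUSG00000039153, chromosome 17 from 44495987 to 44814797) was lower in every siPkm2 library in both units. It was at 17.3, 16.5 and 18.0 TPM in siNC replicates 1, 2 and 3 and at 13.3, 13.8 and 13.7 TPM in siPkm2. It was the only factor whose groups did not overlap in TPM, beside 22.8% of all genes. In CPM it was at 57.1, 40.1 and 51.3 in siNC and at 38.8, 36.9 and 34.8 in siPkm2, with log2 differences of -0.56, -0.12 and -0.56 within pairs. The log2 fold change was -0.43 (SE 0.16, adjusted p = 0.253, edgeR), and -0.41 with the block (SE 0.12, adjusted p = 0.0587). Neither passed. Without pair 2 it was -0.57 (adjusted p = 0.00309, edgeR with the block). Osteoblast markers, of which 4 of 7 were tested and 3 were under 1 CPM in every library, summed to 424, 36.0 and 248 CPM in siNC and 171, 45.2 and 80.4 CPM in siPkm2. The sum was lower in pairs 1 and 3 and higher in pair 2, where Runx2 was slightly lower. Ibsp, which is also a RUNX2 target, gave most of the sum in siNC replicates 1 and 3, and Alpl rather than Ibsp was higher in pair 2, at 10.3 and 25.9 CPM. The part of these markers in the value of Runx2 was not tested. The antisense gene Runx2os1 overlaps Runx2.

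Runx1 (ENSMUSG00000022952, chromosome 16 from 92601466 to 92826149), a factor of early chondrocyte differentiation, was at 10.4, 49.6 and 32.3 TPM in siNC and 11.6, 30.9 and 29.3 TPM in siPkm2. Replicate 1 was far below the others in both groups. The log2 fold change of Runx1 was -0.22 (SE 0.51, adjusted p = 0.874, edgeR) and -0.14 with the block (adjusted p = 0.428). Runx3 (ENSMUSG00000070691, chromosome 4 from 135120652 to 135177990), which acts beside RUNX2 in chondrocyte maturation, had the lowest mean TPM of the 10, though it was below Foxo1 in only 3 of the 6 libraries. It was at 9.27, 7.05 and 5.48 TPM in siNC and 11.7, 5.85 and 4.42 TPM in siPkm2. Replicate 1 was highest in both groups, the reverse of Runx1. For Runx3 the log2 fold change was -0.01 (SE 0.33, adjusted p = 0.991, edgeR). The TPM of Runx1 over that of Runx3 was 1.12, 7.04 and 5.89 in siNC and 0.986, 5.29 and 6.62 in siPkm2. The balance between these relatives was lowest in replicate 1 of both groups.

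Mef2c (ENSMUSG00000005583, chromosome 13 from 83504034 to 83667080), the muscle and hypertrophy factor, was at 18.1, 8.87 and 19.3 TPM in siNC and 17.3, 9.43 and 11.2 TPM in siPkm2. In CPM it was at 51.2, 20.9 and 46.7 in siNC and at 42.0, 18.3 and 30.4 in siPkm2, lower in each of the 3 pairs, while in TPM pair 2 was slightly higher. Lower in all 3 pairs held for 30.6% of all genes. The log2 fold change was -0.39 (SE 0.42, adjusted p = 0.690, edgeR) and -0.37 with the block (SE 0.11, adjusted p = 0.0702). Muscle markers, of which 4 of 8 were under 1 CPM in every library, summed to 5.22 to 8.77 CPM in siNC and 2.33 to 3.85 CPM in siPkm2.

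Foxo1 (ENSMUSG00000044167, chromosome 3 from 52268336 to 52353221) had higher values in siPkm2 in each of the 3 pairs, which 30.5% of all genes did. In TPM it was at 4.40, 11.4 and 5.36 in siNC and at 6.89, 12.7 and 6.41 in siPkm2. Replicate 2 was highest in both groups, and the groups overlapped. The estimate for Foxo1 was 0.36 on the log2 scale (SE 0.40, adjusted p = 0.700, edgeR) and 0.40 with the block (SE 0.11, adjusted p = 0.0531). DESeq2 with the block gave an adjusted p of 0.0421 for a log2 fold change of 0.41, and 13.9% of genes passed there. Foxo3 (ENSMUSG00000048756, chromosome 10 from 42181841 to 42276755) was at 18.9, 30.6 and 28.5 TPM in siNC and 17.7, 25.6 and 24.9 TPM in siPkm2. It differed by -0.10, -0.11 and -0.13 on the log2 CPM scale within pairs, the most even of the factors, and its log2 fold change was -0.12 (SE 0.20, adjusted p = 0.816, edgeR) and -0.11 with the block (adjusted p = 0.301). The TPM of Foxo3 over that of Foxo1 was 4.28, 2.68 and 5.32 in siNC and 2.57, 2.02 and 3.88 in siPkm2, lower in each pair. This ratio was not tested.

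Nfatc1 (ENSMUSG00000033016, chromosome 18 from 80606205 to 80713071) was at 11.1, 17.6 and 13.4 TPM in siNC and 23.9, 14.6 and 15.4 TPM in siPkm2. The siPkm2 replicate 1 library was the highest of the 6, and pair 2 went the other way. The estimate for Nfatc1 was 0.47 on the log2 scale (SE 0.25, adjusted p = 0.390, edgeR) and 0.43 with the block (SE 0.24, adjusted p = 0.234). Within pairs it differed by 1.13, -0.12 and 0.28 on the log2 CPM scale, so 1 pair carried most of the estimate. NFATc1 also drives the formation of osteoclasts, and the 12 leukocyte and osteoclast markers, 3 of them at 0 in every library, summed to 8.85, 71.6 and 9.11 CPM in siNC and 17.9, 47.6 and 13.2 CPM in siPkm2. Their part in the value of Nfatc1 was not tested.

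**Figure D3:**
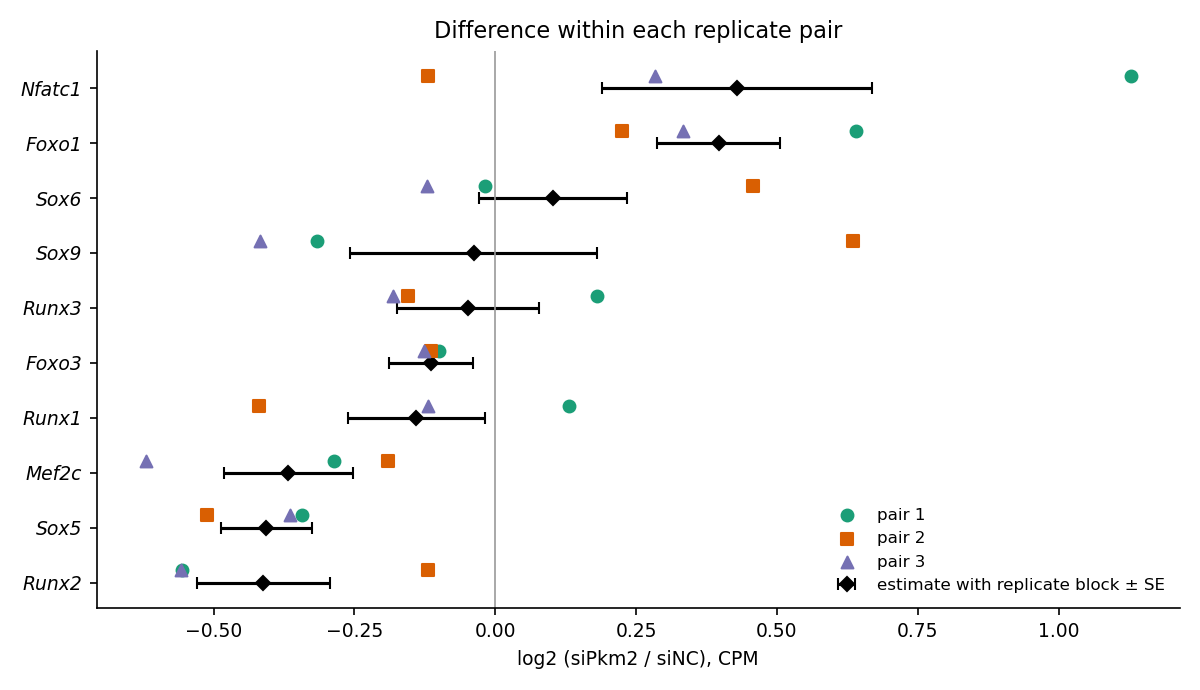
Log2 ratio of siPkm2 over siNC in CPM (horizontal axis) for each factor, with a coloured symbol for each replicate pair and a black diamond for the edgeR estimate with the replicate block ± its standard error. Sox5, Runx2, Mef2c and Foxo3 lie below 0 in all 3 pairs and Foxo1 above 0 in all 3, while Sox9 and Sox6 are positive in pair 2 alone.

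For 7 of the 10 factors most of the spread went with the replicate number. Of the spread of log2(CPM + 0.5) over the 6 libraries, the replicate number held 77.9% to 96.3% for Sox9, Sox6, Runx1, Runx3, Mef2c, Foxo1 and Foxo3, against a median of 56.6% over all genes. The group held 63.8% for Sox5, 63.1% for Runx2 and 36.5% for Nfatc1, and 0.113% to 15.2% for the other 7, against a median of 24.4%. For Nfatc1 the rest, at 53.2%, was the largest part. By mean TPM over the 6 libraries the order was Sox9 (63.6), Runx1 (27.3), Foxo3 (24.4), Sox6 (16.7), Sox5 (16.5), Nfatc1 (16.0), Runx2 (15.4), Mef2c (14.0), Foxo1 (7.85) and Runx3 (7.30). Sox9 was above Runx1 in 5 of the 6 libraries, and every other neighbour in the order was above the next in 3 or 4, so those neighbours did not differ beyond their spread. Sox9 was above 85.2% of tested genes. The TPM of Sox9 over that of Runx2 was 3.85, 2.10 and 5.69 in siNC and 4.06, 3.73 and 5.29 in siPkm2.

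**Figure D4:**
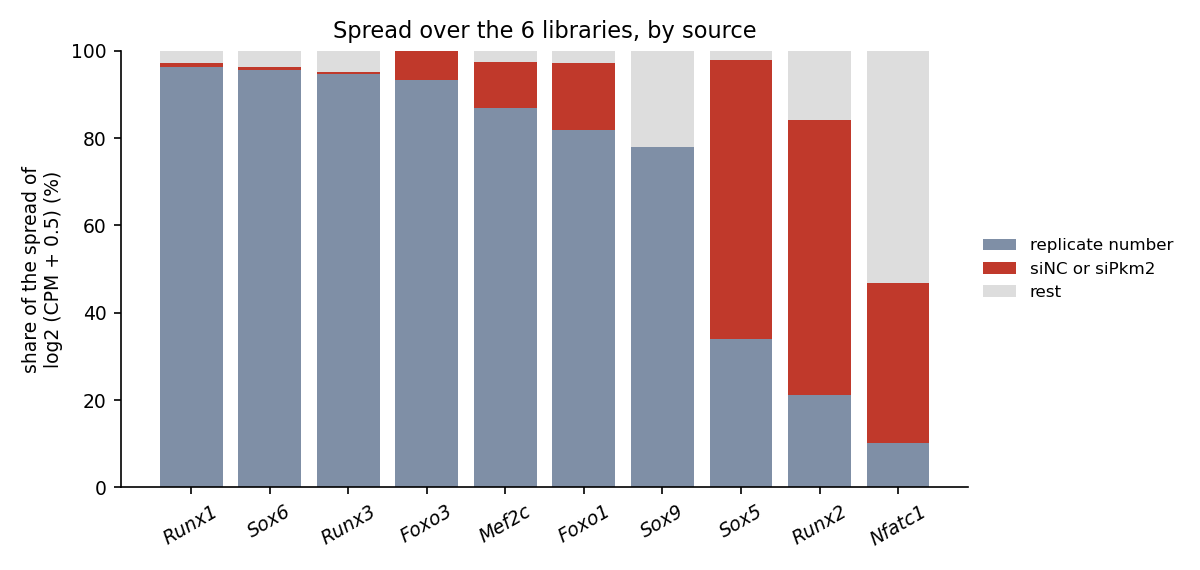
Share of the spread of log2(CPM + 0.5) over the 6 libraries (vertical axis, percent) held by the replicate number, by the group and by the rest, for each factor. The replicate number holds most of it for 7 factors, and the group holds most of it for Sox5 and Runx2.

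Genes that these factors act on or with were described from lists, by edgeR with the replicate block. The main fit was edgeR without the block, in which 0 genes of any list passed. In DESeq2 without it between 0 and 2 genes a list passed. The block was used for the lists because of that result, with a pairing read from these same data. Its adjusted p-values are therefore descriptive. Over all genes 12.3% rose and 10.8% fell with the block. Among the 19 cartilage targets of the SOX trio, 2 rose and 0 fell, with a median log2 fold change of 0.18 (0.29 with the block) against -0.02 over all genes. In the fit without the block the sign of this median changed with single libraries. It was -0.29 without siNC replicate 2, -0.13 without siPkm2 replicate 1 and -0.08 without siPkm2 replicate 3. With any other library left out it ran from 0.41 to 0.55. Each of these fits leaves a library without the one of its number, and replicate 2 was low in cartilage markers in both groups. With pair 2 left out and the block kept, the median was 0.16. Of the 19, 10 were higher in siPkm2 in all 3 pairs, beside 30.5% of all genes. Col9a3, a chain of the collagen IX that coats collagen II fibrils, was at 702, 151 and 567 CPM in siNC and 1065, 271 and 782 CPM in siPkm2. Its log2 fold change was 0.63 (adjusted p = 0.0193, edgeR with the block). The other, Matn3, a matrix adaptor named after its values were seen, had 0.86 (adjusted p = 0.0206, same test). Cnmd, the cartilage protein chondromodulin, had -0.40 (adjusted p = 0.238), Matn4 -0.51 (adjusted p = 0.319) and Ucma -0.28 (adjusted p = 0.544), by the same test. Of the targets named as background, Acan, the gene of aggrecan, had 0.58 (adjusted p = 0.0567) and Col2a1, of collagen II, had -0.08 (adjusted p = 0.801), by the same test. Like Sox9, 6 of the 19 were higher in siPkm2 in pair 2 and lower in pairs 1 and 3, among them Col2a1, Cnmd, Matn4 and Ucma. This was not particular to the SOX trio targets. In the lists below it held for 4 of 12 hypertrophy targets, 11 of 34 other skeletal factors and 4 of 22 partners. It held for 3 of 21 FOXO targets and 0 of 13 calcineurin and NFAT genes. The share over all genes was not counted.

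Of the 13 targets of RUNX2 and MEF2C in hypertrophy and bone, 12 were tested, 1 rose and 2 fell. Ibsp, a bone sialoprotein, was at 339, 19.7 and 190.0 CPM in siNC and 112, 13.6 and 43.4 CPM in siPkm2. It was lower in each pair, and its log2 fold change was -1.45 (adjusted p = 0.0278, edgeR with the block). Spp1, the matrix protein osteopontin, was at 2424, 9604 and 1355 CPM in siNC and 1327, 3416 and 524 CPM in siPkm2, with a log2 fold change of -1.24 (adjusted p = 0.0133, same test). Tnfsf11, the osteoclast-inducing ligand RANKL, rose from 2.44, 23.9 and 1.93 CPM in siNC to 12.0, 44.2 and 10.4 CPM in siPkm2. Its log2 fold change was 1.76 (adjusted p = 0.0233, same test). Phex, a phosphate-regulating endopeptidase of bone, had -0.61 (adjusted p = 0.402). The 3 genes that changed thus went in both directions and are genes of bone matrix and osteoclast induction. The median of the list was -0.21, and -0.11 with the block. Without the block it was 0.25 when siNC replicate 1 was left out and -0.90 when siPkm2 replicate 1 was. These fits break a pair, and with pair 2 left out and the block kept the median was -0.47.

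Of the 21 FOXO targets, 2 rose and 5 fell. The median was -0.19 with the block and -0.16 in the fit without it. The latter was 0.026 without siNC replicate 2, 0.041 without siPkm2 replicate 1 and -0.32 without siPkm2 replicate 2. These fits break a pair, and with pair 2 left out and the block kept the median was -0.31. Prg4, the joint lubricant lubricin, rose most, from 15.9, 23.6 and 22.5 CPM in siNC to 129, 41.5 and 133 CPM in siPkm2. The groups did not overlap, and its log2 fold change was 2.15 (SE 0.44, adjusted p = 0.0271, edgeR with the block). Map1lc3b, a core autophagy protein, rose by 0.57 on the log2 scale (adjusted p = 0.0142, same test). Cat, the peroxide-degrading catalase, was at 90.5, 129 and 94.6 CPM in siNC and at 61.8, 71.2 and 60.9 CPM in siPkm2, with a log2 fold change of -0.68 (adjusted p = 0.0142, same test). Cdkn1b, the cell cycle inhibitor p27, had -0.54 (adjusted p = 0.0349). The other genes that fell were Sesn1, Sesn3 and Insr, named after their values were seen.

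Among the 13 calcineurin and NFAT genes, 0 rose and 3 fell. Homer2, a scaffold that competes with calcineurin for NFAT, was at 4.36, 5.34 and 3.72 CPM in siNC and 1.63, 2.49 and 2.06 CPM in siPkm2, with a log2 fold change of -1.12 (adjusted p = 0.0280, edgeR with the block). Rcan2, a calcineurin regulator, had -0.58 (adjusted p = 0.0334), and Ppp3cb, a calcineurin catalytic subunit, had -0.33 (adjusted p = 0.0336), by the same test. All 3 carry the site GAGAAAC in their UTR, beside 31.9% of all genes lower with the block, and its part was not tested. Of genes that fell, 1 of 2 hypertrophy targets and 0 of 5 FOXO targets hold it. So do 0 of 2 partners and 2 of 7 other skeletal factors that fell, from the lists below. Of genes that rose, 1 of 2 SOX trio targets (Matn3) and 1 of 2 partners (Hdac4) hold it. Among the FOXO targets, hypertrophy targets and other skeletal factors that rose, 0 do. The other catalytic subunit gene, Ppp3ca, had 0.30 (adjusted p = 0.115). The median of the list was -0.07 with the block and in the fit without it. The latter was -0.17 without siNC replicate 2, -0.18 without siPkm2 replicate 1 and -0.0021 without siPkm2 replicate 2. With pair 2 left out and the block kept the median was -0.04.

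Of the 25 paralogs and partners of the families, 22 were tested, 2 rose and 2 fell. The median was -0.0045 with the block and -0.02 without it, where it ran from -0.07 to 0.02 with each library left out. Cbfb, the partner that all 3 RUNX factors need to bind DNA firmly, was at 139, 72.8 and 111 CPM in siNC and 72.9, 39.5 and 49.9 CPM in siPkm2. It was lower in each pair, and its log2 fold change was -0.99 (SE 0.09, adjusted p = 0.0109, edgeR with the block, and 0.195 without it). Hdac9, a class IIa deacetylase that represses MEF2 factors, was at 8.33, 7.61 and 5.95 CPM in siNC and 3.59, 4.09 and 3.15 CPM in siPkm2. Its log2 fold change was -1.01 (adjusted p = 0.0207, same test). Its relative Hdac4 rose by 0.39 on the log2 scale (adjusted p = 0.0350) and the Mef2c paralog Mef2d by 0.71 (adjusted p = 0.0239), by the same test. Cbfb and Hdac9 hold no GAGAAAC site in the UTR examined.

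Among 35 other transcription factors of cartilage, bone and limb mesenchyme, 34 were tested, 1 rose and 7 fell. In the fit without a block 26 of the 34 had negative estimates, beside 7928 of all 15269 genes. The median was -0.33, against -0.02 over all genes. It ran from -0.35 to -0.21 with each library left out, the last without siNC replicate 1. Prrx1, a factor of limb mesenchyme, was at 209.9, 279 and 252 CPM in siNC and 109, 171 and 138 CPM in siPkm2, with a log2 fold change of -0.84 (adjusted p = 0.0113, edgeR with the block). Its UTR holds 3 GAGAAAC sites. Its paralog Prrx2 had -0.99 (adjusted p = 0.0369), Mkx, a tendon factor, -0.82 (adjusted p = 0.0460), and Zeb1, a repressor of epithelial genes, -0.65 (adjusted p = 0.0133), by the same test. Twist2, which can hold back RUNX2, was the gene that rose, at 4.08, 8.74 and 3.94 CPM in siNC and 13.8, 13.4 and 8.50 CPM in siPkm2. Its log2 fold change was 1.15 (adjusted p = 0.0300, same test).

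**Figure D5:**
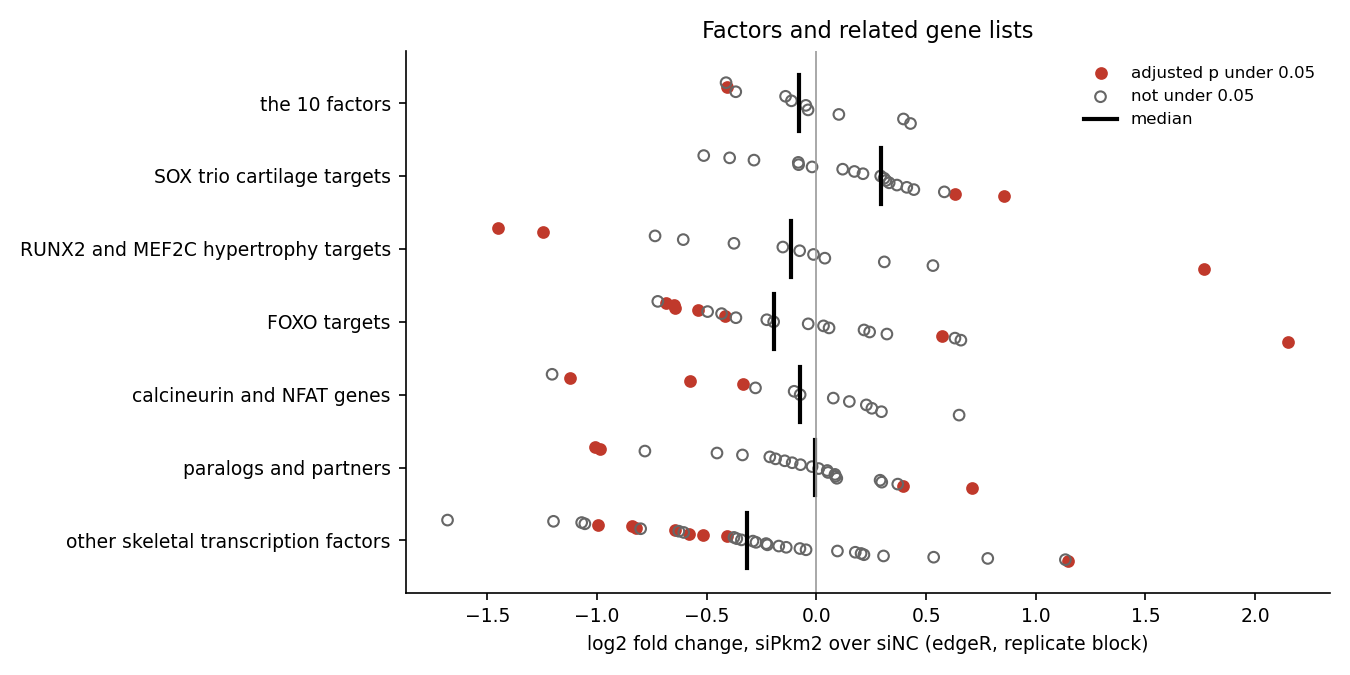
Log2 fold change of siPkm2 over siNC by edgeR with the replicate block (horizontal axis) for the 10 factors and for genes of the 6 related lists. Filled points have an adjusted p under 0.05, open points do not, and black bars are medians. Only Sox5 is filled among the factors, while Prg4 of the FOXO targets lies farthest to the right at 2.15.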

How the data were processed

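RNA-seq of 6 libraries of primary mouse chondrocytes, siNC and siPkm2 replicates 1 to 3, was used. The authors deposited estimated counts per gene, not normalized and some of them fractional, and TPM values, which the authors scaled per transcript length and to the library total. The table also holds the deposited mean TPM of each group and the authors' own comparison (a fold change as a ratio, a log2 fold change, a p-value and an adjusted p-value), which were not used. The submitters' processing notes name mm9 and edgeR. The aligner and counter are not given in the sources used here. Rows with an identifier but no gene name (1492 of 55416) were kept in the fits and are not named.

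The 10 members and the lists were chosen with earlier results of these data known. Rows were matched by gene name. Counts were rounded to whole numbers and filtered by edgeR's filterByExpr on the group, and 15269 genes were compared by edgeR 4.0.16 in R 4.3.3 with TMM factors, the quasi-likelihood test without a block, and Benjamini-Hochberg adjustment over all genes tested. The study's thresholds are a fold over 2 and an adjusted p under 0.05, and counts here are given for the adjusted p alone. The precision of each value is set by the spread between 3 libraries, at total counts of 22316996 to 25691029.

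Both groups have replicate numbers 1 to 3. Over all genes tested, the deviation of a library from its group mean correlated with that of its namesake in the other group at 0.716, 0.794 and 0.720, and with that of other numbers at 0.217 or below, so the numbers were taken to pair the libraries, from the data and not from a statement in the labels. The block adds the replicate number to the fit. No library was a copy of another: 53.6% to 73.7% of genes differed by more than sampling noise within a group.

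All 10 members are named. From each other list the 4 genes with the smallest unadjusted p without a block were taken, plus any that passed with the block at a fold over 2, up to 6, and for Sox9 and Runx2 the 3 genes with the nearest profiles over the 6 libraries. Positions, transcripts and UTRs (the longest of each gene, at least 50 bases) came from GENCODE M21 on GRCm38, in which 94.0% of identifiers were found, and promoters from RefSeq on GRCm38.p6. The fit was also run on simulated counts, in which both groups shared the same replicate profile and every gene had the same noise. Nothing here rests on that run. As alternatives, upper-quartile and RLE factors were used, DESeq2 1.42.0 with and without the block, a minimum of 10 counts in each library or no filter, each library left out, pair 2 left out with the block, and, chosen after seeing the data, limma 3.58.1 on log2(TPM + 0.5) with and without the block.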

Additional observations from a re-analysis of the deposited data

How the results depend on the processing

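At an adjusted p under 0.05 the main count was 0 for the factors and for every list. With the block in edgeR it was 1 for the factors, 2 for the SOX trio targets, 3 for the hypertrophy targets, 7 for the FOXO targets, 3 for the calcineurin and NFAT genes, 4 for the partners and 8 for the other skeletal factors. With the block in DESeq2 it was 2, 5, 3, 9, 3, 6 and 12 in that order, with pair 2 left out and the block 6, 7, 7, 16, 6, 9 and 21, and with limma on log2 TPM and the block 0, 1, 3, 5, 1, 2 and 5. DESeq2 without a block gave 1 for the FOXO targets, 1 for the calcineurin and NFAT genes, 1 for the partners and 2 for the other skeletal factors. Pkm was at -2.50 by DESeq2, -2.53 with the block, -2.52 with the block in DESeq2, -2.63 without pair 2 and -2.53 by limma with the block, all past the threshold, and from -2.80 to -2.34 with each library left out, of which that without siNC replicate 2 passed (adjusted p = 0.0495, edgeR). The cause of these differences was not tested. In edgeR, adding the block and leaving out pair 2 with the block kept both raised the counts for the factors and in every list, the latter more. With limma on log2 TPM the block left the factors at 0.

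The sign of small estimates was not stable. Sox6 turned to -0.053 with upper-quartile factors and to -0.079 without pair 2, and Runx3 to 0.0022 by DESeq2 and 0.0015 without pair 2. With each library left out the log2 fold change ran from -0.49 to 0.23 for Sox9 (0.23 without siNC replicate 3), from -0.34 to 0.30 for Sox6 (-0.34 without siNC replicate 2), from -0.58 to 0.16 for Runx1 (0.16 without siNC replicate 2), from -0.38 to 0.20 for Runx3 (0.20 without siNC replicate 1) and from -0.25 to 0.014 for Foxo3 (0.014 without siPkm2 replicate 1). Sox5, Runx2, Mef2c, Foxo1 and Nfatc1 kept their sign under every alternative run but not their size. With each library left out Foxo1 ran from 0.018 (without siPkm2 replicate 2) to 0.83 (without siNC replicate 2), Mef2c from -0.71 (without siPkm2 replicate 1) to -0.13 (without siPkm2 replicate 2), Nfatc1 from 0.17 (without siPkm2 replicate 1) to 0.63, Sox5 from -0.50 to -0.28 and Runx2 from -0.55 to -0.30. The fits with a library left out had no block, and each left a library without the one of its number. With pair 2 left out and the block kept, Foxo1 was at 0.48, Mef2c at -0.46 and Nfatc1 at 0.70. In that fit Sox5 was at -0.36 and Runx2 at -0.57. Each factor had at least 235 counts in every library.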

Other observations

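The genes whose log2 CPM profile over the 6 libraries, centred on its own mean, lay nearest to that of Sox9 were A330035P11Rik, 2700081O15Rik and Ypel1, with root mean square differences of 0.0646, 0.0952 and 0.114 on the log2 scale. For Runx2 they were Prkd3 (0.0489), Zfp689 (0.0493) and Gm3365 (0.0512). This likeness is over 6 libraries that share the replicate numbers, and nothing is said of shared function or control.

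Besides Sox5, the counts that 1 TPM stood for varied between libraries by 1.34 times for Sox6, 1.34 for Mef2c, 1.33 for Runx3, 1.24 for Runx2 and 1.21 for Runx1. For Nfatc1, Foxo3, Foxo1 and Sox9 it varied by 1.08, 1.05, 1.02 and 1.01 times. In the same order, the first 5 genes have 16, 31, 6, 13 and 7 annotated transcripts and the last 4 have 7, 5, 1 and 1. The level of Mef2c in pair 2 was lower in siPkm2 by CPM (20.9 and 18.3) and higher by TPM (8.87 and 9.43), so the unit decides its direction in that pair.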
